A study of Homo sapiens with 6 samples.

Results

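The regions described here are the 5-methylcytosine (5mC) peaks that were listed in normal glucose and in no other list, with neither a 5mC peak in high glucose nor a 5-hydroxymethylcytosine (5hmC) peak at either glucose level. All rows of 4 deposited peak lists on chromosomes 1 to 22 and X were pooled, rows overlapping by at least 1 bp were merged into union regions, and a union region was kept when its rows came from the normal-glucose 5mC list alone. The members were thus selected on the peak calls of the 4 libraries. This left 14086 of 319166 union regions, or 4.41%. They are called normal-only 5mC regions below, and each consisted of 1 row of the authors' list. The presence and absence of peaks that define them are therefore not results.

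The cells were A2058, a human melanoma cell line, overexpressing wild-type TET2, and every group shared this genotype. They were kept for 7 days in medium with high glucose or with normal glucose. At each glucose level 1 library was made with an antibody against 5mC (MeDIP-seq), 1 with an antibody against 5hmC (hMeDIP-seq) and 1 from input DNA. The labels do not say whether the cells were a clone or a pool, nor how TET2 was expressed. Since each group is 1 library, differences could not be checked on replicates and carry no p-value. The 95% Wilson intervals, given in parentheses after a share, cover counting error only.

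5mC is the methyl mark that DNA methyltransferases place on cytosine, mostly at CpG sites, and TET2 is one of the dioxygenases that oxidise it to 5hmC, the first step of a route back to unmodified cytosine. TET2 is also a known substrate of AMPK, the kinase that responds to low cellular energy. In MeDIP the antibody pulls down fragments in proportion to how many methylated sites they carry, so a peak marks a stretch where methylated sites are dense enough to lift the fragment count over background. A region absent from a list lay under the caller's threshold there, which does not show that the mark was absent.

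The 5mC libraries were shallow beside the 5hmC libraries. For nearly all rows the authors' fold and p columns gave back a whole number of fragments at the summit, the point of the highest signal, and an expected background count. The commonest expected count was 0.615 fragments in the normal-glucose and 0.737 in the high-glucose 5mC list, a ratio of 1.20. In the 5hmC lists it was 2.64 and 3.03. On a genome size of 2700 Mb, which is an assumption, this comes to 5.11 M and 6.14 M reads for 5mC in normal and high glucose, and to 27.5 M and 28.03 M for 5hmC. A 5mC region of normal glucose was therefore looked for in a high-glucose library with more reads than its own.

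The normal-only regions were weak and short. The authors' fold enrichment over background had a median of 4.95, with 90% of regions between 3.53 and 7.25, and the -log10 p a median of 6.53. The median width was 354 bp, against 507 bp for the whole normal-glucose 5mC list, and 32.98% of the regions had exactly 325 bp, the shortest width in that list. They made up 15.3% of the 91870 rows of the list but only 8.64% of its 66.2 Mb of covered sequence. Regions of 1000 bp or more numbered 56, or 0.398%, against 16.9% of the whole list. These traits were not particular to normal glucose. Regions with 5mC in high glucose only and no 5hmC had a median fold of 4.89 and a median width of 361 bp. Of them, 28.5% had the shortest width of their list and 0.705% had 1000 bp or more.

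In fragments, the median summit held 7, and 7164 of the 14068 regions with a fitted count (50.9%) held 7 or fewer. Regions with 5mC at both glucose levels and no 5hmC had a median of 11 fragments in the normal-glucose library, and 16.6% of them held 7 or fewer. The single commonest state of a normal-only region was 7 fragments over the background of 0.615, which equals a 4.95-fold enrichment at a -log10 p of 6.53 and was met by 1551 regions. The medians of fold and p quoted above are this same step. At that background, 1 fragment fewer gives a fold of 4.33 and 1 more gives 5.57. The expected count was at the background for 5250 of the 14068 regions (37.3%) and higher at the others, whose folds thus also vary with it. At the upper end, 157 regions (1.12%) held 15 fragments or more, and the highest held 24.

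**Figure D1:**
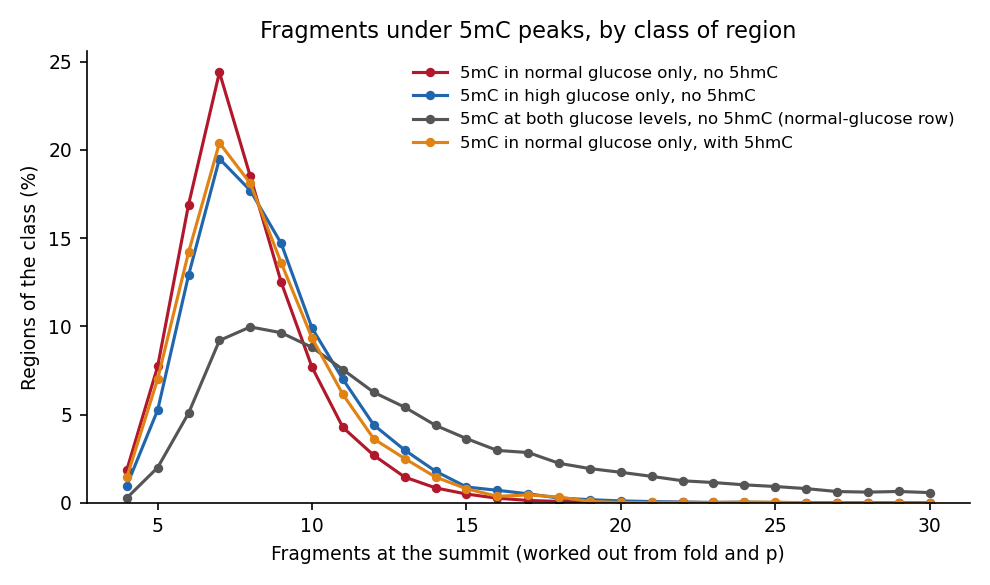
Percent of regions (y axis) by fragments at the summit (x axis), for 4 classes of 5mC region in lists of 1 library each. The curves of regions in 1 list only peak at 7 fragments, where 24.4% of the normal-only regions without 5hmC lie, while 5mC regions found at both glucose levels spread to higher counts.

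The share of the normal-glucose 5mC list that was in no other list fell with peak strength. Strength decides whether a peak is called, so this follows the rule and is a description. Among rows with a -log10 p under 5 it was 37.6% (36.4 to 38.9), among those from 8 to 10 it was 17.02%, and from 10 to 15 it was 7.10%. Of the 21879 rows at 20 or more, 11 were normal-only regions, or 0.0503% (0.0281 to 0.0900). A -log10 p of at least 10 was reached by 1342 normal-only regions, or 9.53%, against 51.5% of the whole list.

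**Figure D2:**
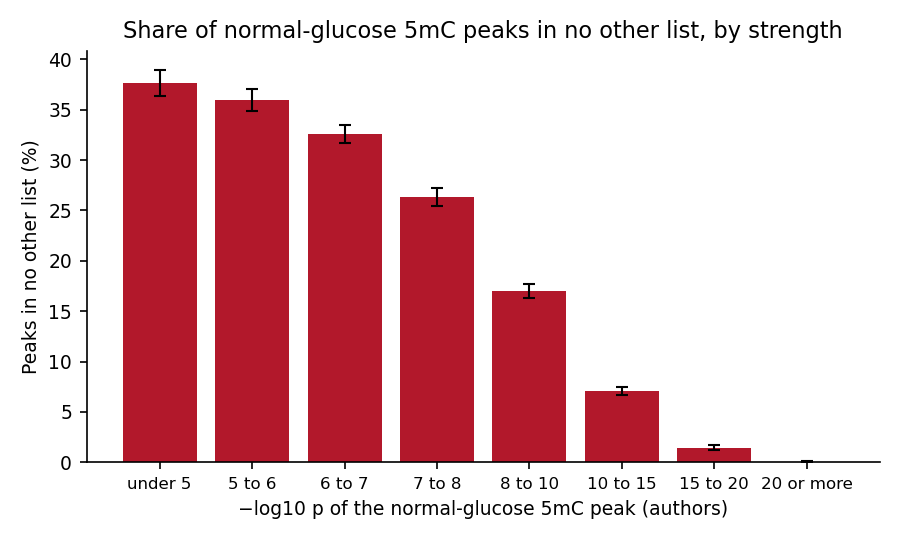
Percent of normal-glucose 5mC peaks found in no other list (y axis, bars with 95% Wilson intervals) by the authors' -log10 p (x axis). The share falls from 37.6% under 5 to 0.0503% at 20 or more.

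Lack of 5hmC was common among 5mC regions of normal glucose alone, and the rule keeps only those that lack it. Of 19236 normal-glucose 5mC rows without high-glucose 5mC in their union region, 14086 also lacked 5hmC, or 73.2% (72.6 to 73.8). For 5mC rows found at both glucose levels the figure was 49.9% (49.5 to 50.3), and for those of high glucose alone it was 76.3% (75.8 to 76.8). Rows found at both levels were wider, with a median of 484 bp without and 716 bp with 5hmC. Width and strength were not matched in this comparison, and their part in the difference was not tested. The 5150 normal-glucose rows that had 5hmC but no high-glucose 5mC had nearly the same strength, with a median fold of 4.93 and a median -log10 p of 6.53. They were a little wider, at a median of 386 bp, and 24.5% of them had the shortest width. The expected count exceeded 2 times the background at 6.86% of them and at 2.60% of the normal-only regions without 5hmC.

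The 10 normal-only regions with the highest -log10 p reached folds of 11.1 to 13.9, with 18 to 23 fragments at the summit over expected counts of 0.624 to 1.08. They are given by position on hg19, as the authors' lists place them. The strongest was chr7:134872801-134873447, with a fold of 13.9 and 22 fragments against 0.652 expected. No high-glucose 5mC peak lay within 4973 bp of it and no 5hmC peak within 4949 bp, while the next 5mC peak of its own list was 1081 bp away. The second, chr4:185349897-185350325, had a fold of 12.8 and 23 fragments, and it lay close to other peaks. Its nearest 5hmC peaks were 378 bp away in normal and 358 bp in high glucose, and the nearest high-glucose 5mC peak 911 bp away.

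The third, chr13:106694798-106695326, and the fourth, chr3:52577933-52578398, had folds of 13.1 and 13.2 with 22 and 21 fragments. High-glucose 5mC was 5453 bp and 7967 bp from them. At chr20:45007499-45007987, with a fold of 11.5 and 22 fragments, 5hmC peaks of normal and high glucose ended 45 bp and 82 bp away, so this region missed the overlap with 5hmC by less than its own width. Around chr7:75735372-75735790, with a fold of 12.3 and 19 fragments, the nearest peaks of the other 3 lists were at least 13657 bp away.

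The other 4 were chr7:124506788-124507170, chr2:86292271-86292725, chr15:80624356-80624938 and chr4:141582997-141583410. The region on chromosome 15 stood farthest from high-glucose 5mC, at 101922 bp, with 19 fragments. Of these 10 regions, 3 lay on chromosome 7 and 2 on chromosome 4. Gaps to the nearest high-glucose 5mC peak ranged from 911 to 101922 bp.

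The 5 widest regions were 1298 to 1725 bp long and were not strong. The widest, chr9:68298807-68300531, had a fold of 4.95 with 7 fragments, and the next, chr7:73968817-73970246, a fold of 3.10 with 4 fragments. chr7:4835512-4836866 followed at 4.81 and 8 fragments. chr6:48036215-48037541 and chr2:26130399-26131696 each had a fold of 6.19 with 9 fragments, above the 75th percentile of normal-only regions, 5.57. The widest regions were thus not the highest, and their folds ran from 3.10 to 6.19.

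Most normal-only regions lay within 10000 bp of a high-glucose 5mC peak, and by the rule none overlapped one. The median gap to the nearest high-glucose 5mC peak was 4984 bp, and 67.6% of regions (66.8 to 68.3) lay within 10000 bp of one. This was near their spacing to peaks of their own list. Another peak of their own list lay within 10000 bp of 64.8% of them. Of regions with 5mC in high glucose only and no 5hmC, 63.5% had a normal-glucose 5mC peak within 10000 bp. Within 1000 bp the share was 15.3%, and within 500 bp it was 6.04%, or 851 regions. Of these 851, the near neighbour was 5mC found at both glucose levels for 531 (285 without and 246 with 5hmC), and 5mC found in high glucose alone without 5hmC for 261, or 30.7%. That last class made up 21.1% of the whole high-glucose list. At these 261 places a peak of one glucose level stood beside a peak of the other, in adjacent stretches that did not overlap.

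The 5hmC lists, which are longer, came closer. The median gap was 3324 bp to normal-glucose and 3928 bp to high-glucose 5hmC, and 20.96% and 17.5% of regions had such a peak within 1000 bp. The order of these gaps follows the number of rows in each list, 209999, 191314 and 100220 for normal-glucose 5hmC, high-glucose 5hmC and high-glucose 5mC. The nearest peak of any of the 3 lists was 5hmC of normal glucose for 34.6% of regions, 5mC of high glucose for 33.8% and 5hmC of high glucose for 31.6%. A 5hmC peak was thus nearest for all regions but that 33.8%, divided between the lists of normal and high glucose. Whether these shares differ from what the list lengths would give was not tested. Strength was nearly the same at every gap to high-glucose 5mC. The median -log10 p was 6.48 for regions within 500 bp and 6.53 for those over 50000 bp away, and a -log10 p of at least 10 was reached by 8.58% and 9.45% of them.

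**Figure D3:**
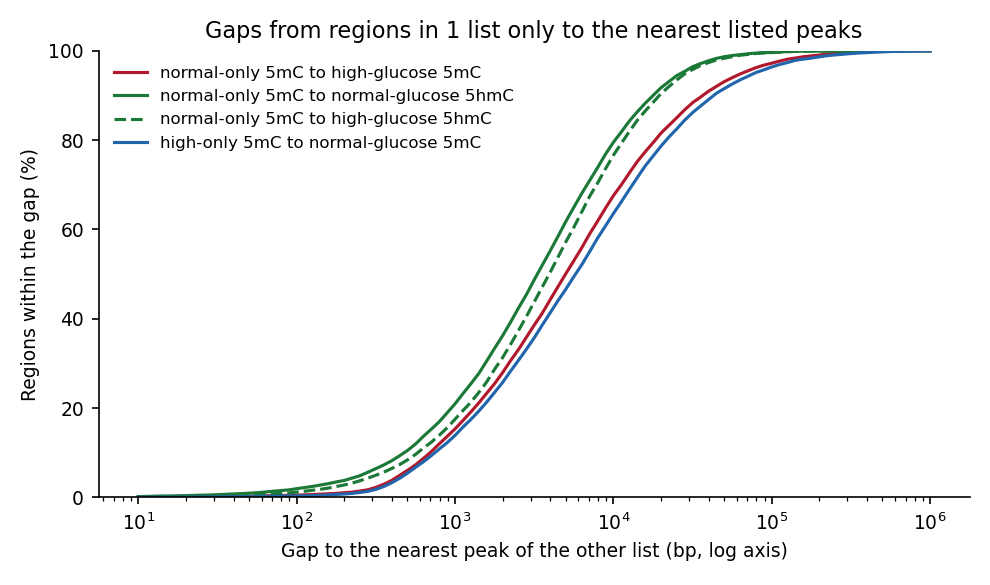
Cumulative percent of regions (y axis) whose nearest peak of another list lies within a given gap (x axis, bp, log axis), for normal-only 5mC regions without 5hmC and for their high-glucose counterparts. At 10000 bp, 67.6% of the normal-only regions have a high-glucose 5mC peak and 79.5% a normal-glucose 5hmC peak.

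The 2 regions closest to the edge of the rule touched a high-glucose 5hmC peak with no base between them, at chr9:136800444-136800898 (fold 5.18) and chr19:44154148-44154493 (fold 5.18). Of those 1 bp from another list, chr1:115054732-115055496, chr1:236705996-236706566 and chr6:155816529-155816897 lay next to 5hmC peaks, with folds of 5.76, 3.95 and 6.41. Just outside it, 6 normal-glucose 5mC rows overlapped another list by a single base. Of these, chr1:65301972-65302301, chr1:206613881-206614205, chr8:95454548-95454932, chr15:81317140-81317819 and chr17:36854968-36855292 met 5hmC peaks, with folds of 4.89, 4.40, 5.48, 5.86 and 3.72. In all, 457 normal-only regions lay within 100 bp of another list, and 577 rows were left out for an overlap of 100 bp or less.

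A small number of regions stood alone. No peak of the other 3 lists came within 10000 bp of 1226 regions (8.70%), within 50000 bp of 54, or within 100000 bp of 13. The most isolated was chr9:65602469-65602793, with a fold of 4.95, 7 fragments and no other list within 851951 bp. The next were chr14:19038138-19038724, chr9:70123005-70123342, chr1:145991494-145991964 and chr22:16288229-16288553, at 398757, 385531, 244986 and 190360 bp. The region on chromosome 14 had 15 fragments but a fold of only 3.19, because 4.01 fragments were expected there, well over the background of 0.615. The other 4 had expected counts at that background.

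Most normal-only regions had no neighbour of their own class. They were 4.41% of the union regions, so most would stand singly in any mixed order. Whether they ran together more or less often than this share implies was not tested. Along the union regions, 12345 of the 14086 (87.6%) had a region of another class on both sides. Pairs of adjacent normal-only regions numbered 766, runs of 3 numbered 63 and runs of 4 numbered 5, and no longer run was found. The most compact run of 4 was chr7:152264894-152271337, within 6444 bp, with a median fold of 4.60. The next lay at chr22:41882514-41895140, within 12627 bp and with a median fold of 4.32. The run at chr7:75735372-75749214 began with the sixth strongest region and had a median fold of 4.95.

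The 1 Mb windows richest in normal-only regions were also rich in other 5mC. Of 2875 windows, 2413 held at least 1 (83.9%), the median window held 3 and the highest 29. That window, chr12:122000001-123000000, had 155 normal-glucose 5mC rows in all, and 36 regions with 5mC in high glucose only and no 5hmC, the mirror class, called counterparts here. chr3:49000001-50000000 followed with 28 normal-only regions and 31 counterparts. Then came chr1:150000001-151000000, chr9:131000001-132000000 and chr16:4000001-5000000 with 27 each, beside 22, 29 and 32 counterparts. Across windows the counts of both classes rose together, with a Pearson r of 0.81 and a Spearman rho of 0.80. Windows share library, depth and base composition, so this is a description only.

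Counterparts outnumbered normal-only regions in 1834 windows, the reverse held in 568, and 473 had equal counts. The largest excess of normal-only regions was 24 against 14, at chr1:236000001-237000000. chr3:138000001-139000000 had 15 against 6, and here 5mC peaks covered 4.09% in normal and 3.66% in high glucose. chr8:95000001-96000000 had 14 against 5, with a 5mC cover of 2.35% and 1.97%. chr11:77000001-78000000 had 22 against 15 and chr1:244000001-245000000 had 18 against 11. In 3 of these 5 windows the 5mC cover was higher in normal glucose, and in the 2 on chromosome 1 it was a little lower. The windows were picked for an excess of normal-only 5mC regions, so their cover is tied to that choice. The largest excess of counterparts was greater, 35 against 11 normal-only regions at chr3:48000001-49000000.

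As a share of the list, normal-only regions were most frequent where high-glucose 5mC was sparse, which the rule itself favours. Windows were split into 5 equal groups by the cover of high-glucose 5mC. In the sparsest group 426 of 1200 normal-glucose 5mC rows were normal-only, or 35.5% (32.8 to 38.2), and in the richest 6534 of 56397, or 11.6% (11.3 to 11.9). In number the order was opposite, with 0.741 normal-only regions per window in the sparsest and 11.4 in the richest group, which held 46.4% of them all. Ranked by normal-glucose 5hmC cover, the share went from 28.3% to 11.3%. Among 5mC regions of normal glucose alone, the share lacking 5hmC went from 94.05% in the windows with least 5hmC to 65.3% in those with most. A denser list leaves fewer places free of it, and the rule requires absence from the lists that rank the windows. All these shares are thus tied to the ranking and are a description only.

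**Figure D4:**
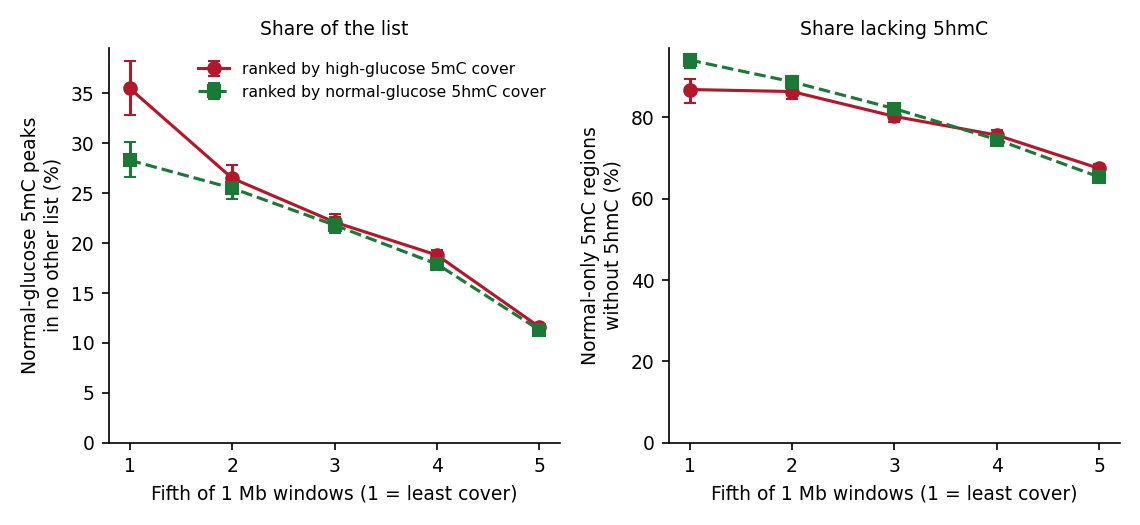
Share of normal-glucose 5mC peaks in no other list (left) and share of normal-only 5mC regions that lack 5hmC (right), in 5 equal groups of 1 Mb windows ranked by peak cover (x axis), with 95% Wilson intervals. Both shares fall toward windows with more cover, from 35.5% to 11.6% on the left for high-glucose 5mC cover. The rule used the lists that rank the windows, so the fall is tied to the ranking.

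The chromosome ends, where 5mC peaks crowd, held a smaller share of the normal-only regions than of the whole list. The rule requires absence from the other lists, so this is a description only. Within 5 Mb of the outermost listed peak of a chromosome lay 12.7% (12.2 to 13.3) of the normal-only regions, against 18.05% (17.7 to 18.4) of regions with 5mC at both glucose levels and no 5hmC, and 22.6% of the whole list. Counterparts were placed much like the normal-only regions, at 13.4% (12.96 to 13.9). Regions with 5mC in normal glucose alone that overlapped 5hmC were nearer the ends, at 17.2% (16.2 to 18.2).

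By chromosome, the share of normal-glucose 5mC rows that were normal-only was highest on chromosome 3, at 20.8% (19.6 to 22.01), and on chromosomes 5 and 6, at 18.7% and 18.6%. It was lowest on chromosome 19, at 9.70% (8.99 to 10.5), chromosome 16, at 11.6%, and chromosome 20, at 11.99%. The intervals of chromosome 3 and chromosome 19 did not overlap, whereas chromosomes 16, 20, 11 and 17 had overlapping ones. These intervals cover counting error only, so they do not test a difference between chromosomes. The rule requires absence from the other lists, which leaves fewer rows free where those lists are dense. The shares by chromosome are thus a description only. Chromosome 19 also had the shortest median gap to high-glucose 5mC, 2003 bp, and chromosome 13 the longest, 8967 bp.

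Set against their counterparts, normal-only regions were fewer on 23 of 23 chromosomes. In all there were 14086 against 21139 (6.62% of the union regions), a ratio of 0.666 (0.652 to 0.681), with the high-glucose library 1.20 times as deep. The counterparts had a median of 8 fragments, and 12.4% of them had a -log10 p of at least 10, against 9.53% of normal-only regions. These counts and p-values come from libraries of unlike depth, so they do not show that the counterparts were stronger. The median fold was 4.89 for the counterparts and 4.95 for the normal-only regions. With the high-glucose rows scaled to the background of normal glucose, 1489 of the 21139 counterparts reached a -log10 p of 10. Of the 14086 normal-only regions, 1342 did. When the same number of top rows was taken from both libraries of a mark, the ratio was 0.943, below 1 on 15 of 23 chromosomes. At a -log10 p of at least 10 it was 0.513, and it was 0.901 once the high-glucose rows had been scaled to the background of normal glucose. The size of the ratio thus moved with the settings, though it was below 1 in each of these. The scaling changed the p-values of the counterparts only, and membership was still set on the full lists. It therefore does not make the libraries equal, and whether the ratio is below 1 at equal depth was not tested.

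The X chromosome had the fewest normal-only regions per counterpart, 246 against 534, a ratio of 0.461 (0.396 to 0.536), and chromosome 14 came next with 353 against 715, or 0.494 (0.435 to 0.561). Chromosome 6 had 0.553 and chromosome 9 the highest ratio, 0.756 (0.683 to 0.837). X and 14 were also lowest, in this order, with equal numbers of top rows, at 0.773 (0.665 to 0.898) and 0.819 (0.720 to 0.931). The same held at a -log10 p of at least 5 after scaling, at 0.546 and 0.618. Chromosome 6 had 0.887 with equal numbers of rows and 0.646 after scaling. Chromosome 22 had 0.578 as listed, 1.04 with equal numbers of rows and 0.692 after scaling. Over all their 5mC rows, normal over high glucose, X and 14 had ratios of 0.815 and 0.844, against 0.917 for all chromosomes together. They were not alone in this, as chromosome 6 had 0.842 and chromosome 18 had 0.868.

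**Figure D5:**
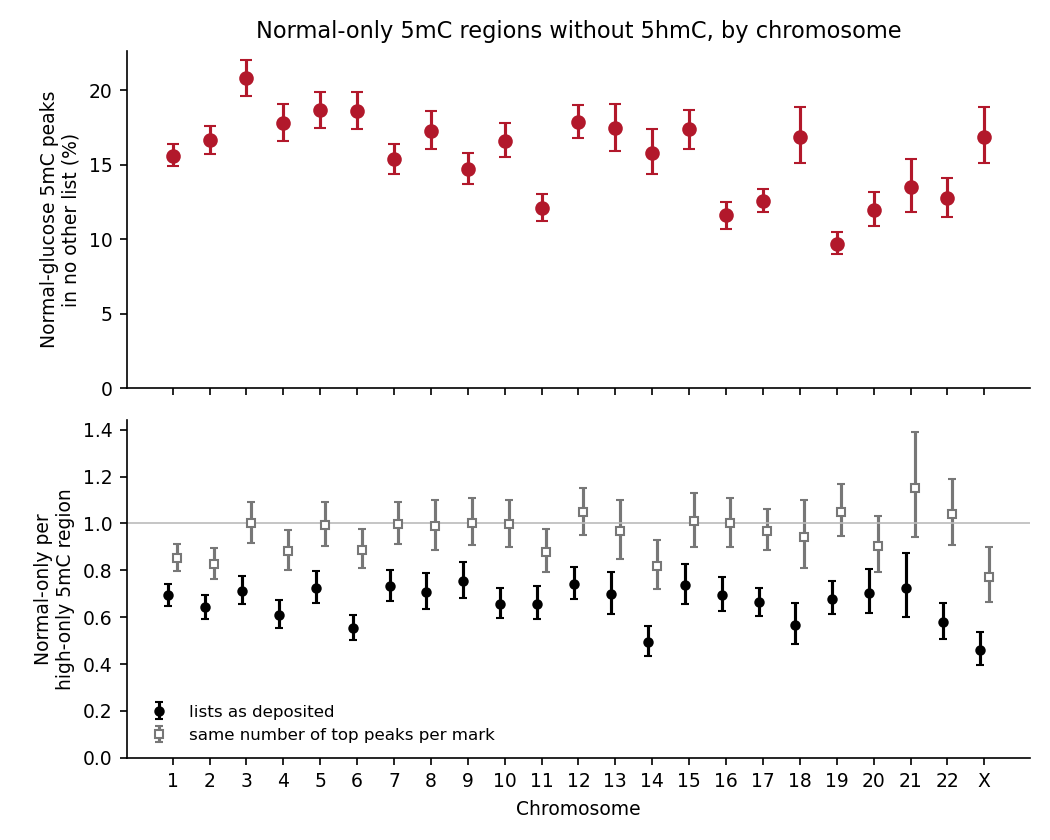
Normal-only 5mC regions without 5hmC by chromosome (x axis), as a percent of the normal-glucose 5mC list (top) and per high-only counterpart (bottom, lists as deposited and with the same number of top peaks per mark), with 95% Wilson intervals. Chromosome 19 has the lowest share, 9.70%, and the X chromosome the lowest ratio, 0.461.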

How the data were processed

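The authors deposited 1 narrow peak list per immunoprecipitated library. Per the submitters' processing notes the build was hg19 and the tools CASAVA 1.8.2, Bowtie 1.0.0, SAMtools 0.1.18 and bedtools 2.17.0, without roles. The peak caller and its control are not named there. Each deposited row holds the summit offset, the -log10 q-value and -log10 p-value at the summit, the ratio of signal to background (fold enrichment) and a display score, which was not used. The highest q-value in a list was 0.0498. Rows on other chromosomes (80, 82, 14 and 15) were left out. Input libraries were not analysed here.

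Union regions were built in Python 3.11.15 with NumPy 2.4.6, pandas 2.3.3 and SciPy 1.17.1. bedtools 2.31.1 gave the same 14086 regions. A pair of whole fragments t and background L was accepted where (t + 1)/(L + 1) matched the fold and the Poisson upper tail beyond t matched the p-value to within 1% of the step between whole numbers, with L no lower than its commonest value. This held for 91824 of 91870 rows of the normal-glucose 5mC list. Both steps were tested on simulated data. Windows of 1 Mb took regions by midpoint. The regions, lists and alternatives were chosen with earlier results of these data known. Named regions followed a rule: the 10 with highest -log10 p, the 5 widest, the 5 most isolated, 5 on each side of the rule's edge, 5 windows by number and 5 by excess, and the 3 longest runs. No genome or gene models on hg19 were used here, so no sequence or gene is given.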

Additional observations from a re-analysis of the deposited data

How the results depend on the processing

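The number of normal-only regions stayed within 1.5 times of 14086 when all lists were held to a -log10 q of at least 2, with autosomes only, with rows within 500 bp joined, when rows were left out only where another list covered 50% of them, and with the same number of top rows per mark. With 5mC rows at a -log10 p of at least 10 it was 1342, with a median fold of 7.33 and a median width of 428 bp, as a stricter threshold brings with it. The ratio to counterparts was then 0.513. With equal numbers of rows the median width was 358 bp, the ratio 0.943 and the share within 10 kb of high-glucose 5mC 65.7%. With the 50% rule these were 371 bp, 0.685 and 72.8%. With rows within 500 bp joined the share was 63.8%. Further settings were chosen after seeing the data. After scaling to the lower background and at the threshold of 5 on -log10 p, the ratio was 0.744 and the share 66.7%. At 10 the ratio was 0.901, with the 1342 regions, 7.33 and 428 bp given above. For regions at least 1 kb from 5mC rows of the other glucose level the share was 61.7%. The cause of the moves in ratio was not tested. No paired analysis was possible because each group holds 1 library. The median summit of these regions held 7 fragments, and at the commonest background 1 fragment changes the listed fold of 4.95 to 4.33 or 5.57. How far depth limits these regions was not tested.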
